A study of Mus musculus with 14 samples.

Results

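Mitochondria fuse, divide and are removed by autophagy, and 10 genes of these processes are described here in mouse tumours treated with an inhibitor of the transcription factor MYC, an inhibitor of class IIa histone deacetylases, or both. The genes were taken by name and found by mapping the mouse Ensembl gene IDs of the deposited table to symbols, and all 10 were among its 21152 genes. They are Mfn1, Mfn2, Opa1 and Oma1 (fusion and the cleavage of its inner membrane factor), Dnm1l, Fis1 and Mff (fission), and Pink1, Bnip3l and Fundc1 (mitophagy). The tumours were grown in mice from LLC1, a Lewis lung carcinoma cell line of mouse origin, and the mice were treated for 16 days. RNA was taken from a tumour-enriched population of the dissociated tumours, and how it was enriched is not stated in the labels. The groups were MYCi975 at 50 mg/kg (n = 4 libraries), TMP195 at 50 mg/kg (n = 3), the combination of both compounds, labelled Combo, for which the labels give no separate doses (n = 3), and vehicle, which was DMSO (n = 4). The labels state neither the strain, age and sex of the mice nor whether every library came from another animal. All p-values therefore rest on the spread between libraries, which may be technical in part.

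Fusion of the outer mitochondrial membrane is carried out by the mitofusins MFN1 and MFN2, and fusion of the inner membrane by the dynamin-related GTPase OPA1. OMA1 is an inner membrane protease that is activated when the membrane loses its potential and then cleaves OPA1, which stops inner membrane fusion. For fission, the cytosolic GTPase DRP1, encoded by Dnm1l, is recruited to the outer membrane by adaptors such as MFF and assembles into rings that constrict the organelle. Damaged mitochondria are marked for autophagy by the kinase PINK1 or by outer membrane receptors such as BNIP3L (also called NIX), BNIP3 and FUNDC1, which bind LC3 proteins directly. BNIP3 and BNIP3L are known as genes induced by hypoxia through HIF1, and MYC is known to promote mitochondrial biogenesis in tumour cells.

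To show the DNA before the start sites of the gene with the widest difference and of the closest relative of Bnip3l, the 250 bases before each start are printed 5′ to 3′ on the gene's strand, from RefSeq on build GRCm38.p6. The Oma1 window is chr4:103313596-103313845 on the plus strand and the Bnip3 window is chr7:138909507-138909756 on the minus strand. Capitals mark matches to the E-box CACGTG, the sequence that MYC with MAX is known to bind, and to the hypoxia response cores ACGTG and GCGTG, each on both strands.
Oma1: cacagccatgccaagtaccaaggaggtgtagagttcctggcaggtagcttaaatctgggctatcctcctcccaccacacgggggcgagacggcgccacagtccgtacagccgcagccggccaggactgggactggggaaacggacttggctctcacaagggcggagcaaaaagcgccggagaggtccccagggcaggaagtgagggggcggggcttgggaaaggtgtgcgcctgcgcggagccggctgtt
Bnip3: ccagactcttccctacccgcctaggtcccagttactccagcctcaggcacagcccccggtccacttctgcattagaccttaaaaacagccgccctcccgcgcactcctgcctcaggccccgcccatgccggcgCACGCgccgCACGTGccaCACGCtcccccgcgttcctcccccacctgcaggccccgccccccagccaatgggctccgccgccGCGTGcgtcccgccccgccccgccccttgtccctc
The Oma1 window held neither motif. The Bnip3 window held 1 E-box, which starts 108 bases before the start site, and 5 hypoxia core matches, among them the ACGTG on each strand of that E-box. The promoter table matched 9 of the 10 genes, all but Bnip3l. Of these 9, 0 held an E-box, against 6.86% of the 27025 genes in the table. In any window of a gene, the hypoxia core was found for 3 of the 9 (Mfn2, Dnm1l and Pink1), against 41.5% of all genes. These matches describe letters in a window and do not show binding.

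The values are expression levels on a log2 scale after a variance-stabilising transformation by the authors, with a lowest value of 4.047 that all libraries share. The depth of the libraries is unknown. The number of genes at the lowest value ran from 880 to 2954 per library. None of the 10 genes was at the lowest value in any library, and their values ran from 5.71 (Oma1) to 10.54 (Bnip3l). Since the scale carries no gene length, levels are compared between groups for 1 gene and not between genes. The keratin genes Krt8 (7.86 to 8.65) and Krt18 (7.84 to 8.88), Cd44 (10.85 to 12.42) and Vim (14.14 to 14.69) were present in all libraries, while the epithelial marker Epcam lay between 4.047 and 5.30 and at the lowest value in 4 libraries. Leukocyte RNA varied among the libraries. The mean of 5 leukocyte markers, each centred over the 14 libraries, ran from -0.31 to 1.18 with MYCi975, where the highest was replicate 2, from -0.19 to 0.70 with TMP195, from -0.82 to -0.37 with the combination and from -0.39 to 0.25 with vehicle. In such bulk tumour RNA, fewer cells of a type and less RNA per cell cannot be told apart.

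None of the 10 genes passed limma's test between any groups after Benjamini-Hochberg adjustment over all 13711 genes tested. This was so for each of the 6 comparisons, in each of which 0% of all genes passed at an adjusted p under 0.05. The widest difference from vehicle belonged to Oma1, which averaged 5.90 ± 0.29 (SD, n = 4) with MYCi975, 5.99 ± 0.26 (n = 3) with the combination and 6.34 ± 0.32 (n = 4) with vehicle. Mff averaged 8.03 ± 0.25 with MYCi975 and 8.34 ± 0.31 with vehicle, and Bnip3l averaged 10.10 ± 0.23 with the combination and 10.34 ± 0.15 with vehicle. The 95% intervals of the 10 genes in the comparisons with vehicle all lay between -0.88 and 0.63 log2 units. A p that misses the threshold does not show that levels were equal.

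**Figure D1:**
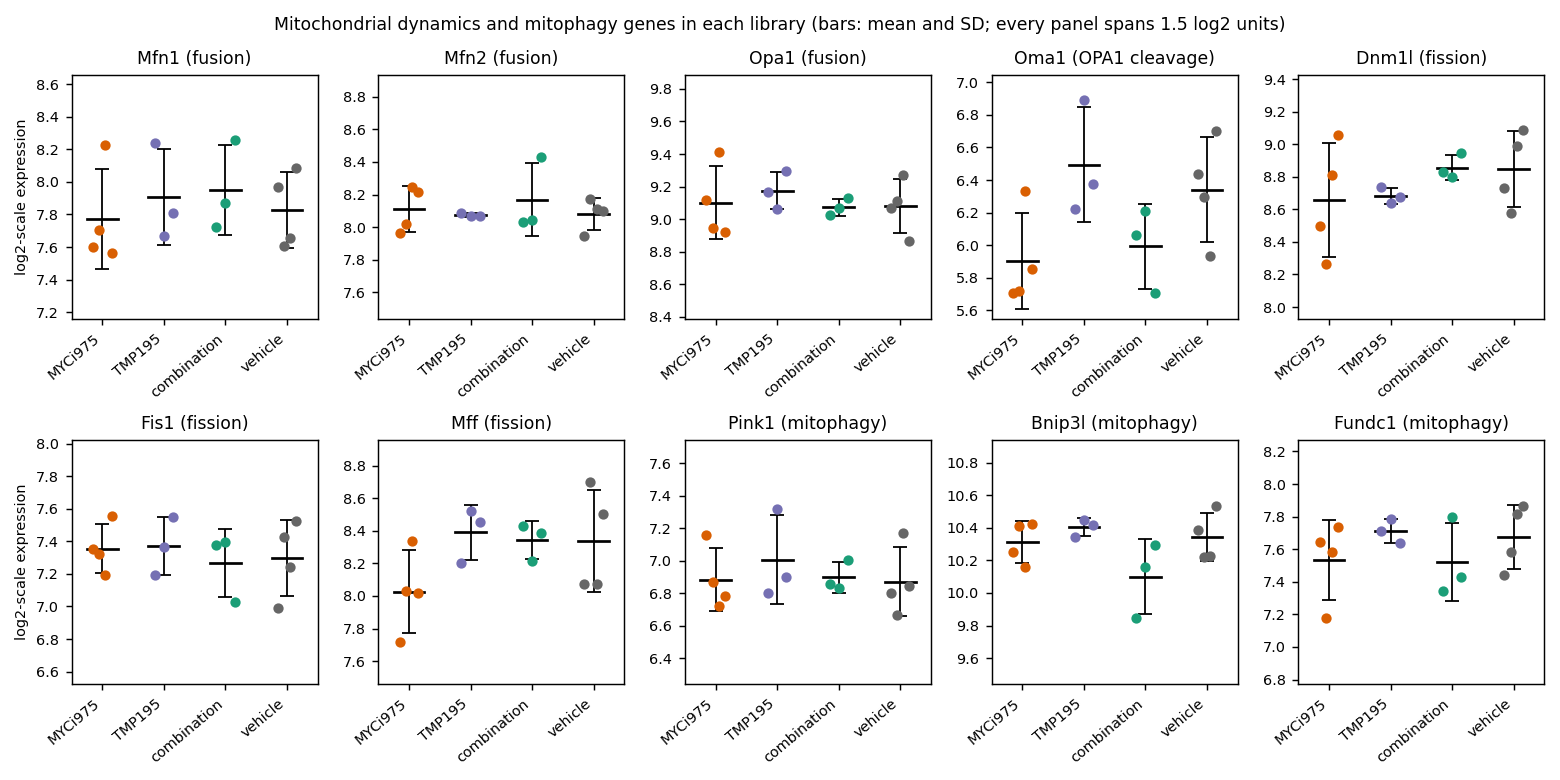
Expression of the 10 genes on the authors' log2 scale (vertical axis, 1.5 log2 units in every panel) in each library of the MYCi975, TMP195, combination and vehicle groups (horizontal axis). Points are libraries and bars are the mean and SD. The groups overlap in every panel for each treatment against vehicle, and Oma1 (5.71 to 6.89) has the widest range over the libraries.

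The 4 groups overlapped in both mitofusin genes. Mfn2 (ENSMUSG00000029020.14) was 7.96, 8.02, 8.25 and 8.22 with MYCi975, 8.09, 8.07 and 8.07 with TMP195, 8.03, 8.05 and 8.43 with the combination, and 7.94, 8.17, 8.11 and 8.10 with vehicle. Combination replicate 3 was the highest library and every treated group overlapped vehicle. Its log2 differences from vehicle were 0.03 with MYCi975 (95% interval -0.22 to 0.29), -0.0049 with TMP195 (-0.28 to 0.27) and 0.09 with the combination (-0.19 to 0.36). Its spread within groups was small, with a pooled SD of 0.14, and 7.02% of all genes tested had a smaller one. Mfn1 (ENSMUSG00000027668.14) was more variable, at 7.60, 7.71, 8.23 and 7.56 with MYCi975, 8.24, 7.67 and 7.81 with TMP195, 7.72, 7.87 and 8.25 with the combination, and 7.97, 7.60, 7.66 and 8.08 with vehicle. Each group held 1 or 2 libraries near 8.0 or above beside lower ones. The pooled SD of Mfn1 was 0.28, and its differences from vehicle were -0.05 with MYCi975 (-0.45 to 0.34), 0.08 with TMP195 (-0.34 to 0.50) and 0.12 with the combination (-0.30 to 0.54). Mfn2 minus Mfn1, taken within a library, averaged 0.34 ± 0.26 with MYCi975, 0.17 ± 0.29 with TMP195, 0.22 ± 0.08 with the combination and 0.25 ± 0.30 with vehicle, so the relation of both mitofusins to each other overlapped between all groups.

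Opa1 (ENSMUSG00000038084.17), the gene of the inner membrane fusion GTPase, was 9.12, 8.95, 9.41 and 8.92 with MYCi975, 9.17, 9.07 and 9.30 with TMP195, 9.02, 9.07 and 9.13 with the combination, and 9.07, 9.11, 9.27 and 8.87 with vehicle. The lowest and the highest library were vehicle replicate 4 and MYCi975 replicate 3. The differences from vehicle were 0.02 with MYCi975 (-0.25 to 0.29), 0.10 with TMP195 (-0.20 to 0.39) and -0.0064 with the combination (-0.30 to 0.28). With 1 library left out, the TMP195 difference ran from 0.02 (without vehicle replicate 4) to 0.16 (without vehicle replicate 3).

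Oma1 (ENSMUSG00000035069.4), the gene of the protease that cleaves OPA1, was 5.71, 5.72, 6.33 and 5.86 with MYCi975, 6.22, 6.89 and 6.37 with TMP195, 6.06, 6.21 and 5.71 with the combination, and 6.44, 6.30, 5.93 and 6.70 with vehicle. The 4 lowest libraries were 3 MYCi975 libraries and 1 combination library, but vehicle replicate 3 at 5.93 lay below MYCi975 replicate 3 and below 2 combination libraries, so both groups overlapped vehicle. The log2 difference was -0.44 for MYCi975 against vehicle (95% interval -0.88 to 0.0025, unadjusted p = 0.051, adjusted p = 0.999 by limma). It was -0.35 for the combination against vehicle (-0.82 to 0.13, adjusted p = 0.992 by limma) and 0.15 for TMP195 against vehicle (-0.32 to 0.63). All 3 combination libraries lay below all 3 TMP195 libraries, with the nearest at 6.21 and 6.22, as did 6.36% of all genes tested. The difference of -0.50 (-1.01 to 0.0058, unadjusted p = 0.052, adjusted p = 0.998) did not pass limma's test. The TMP195 and MYCi975 comparisons with vehicle share the vehicle libraries, and the comparisons of the combination share its 3 libraries. The difference for MYCi975 ran from -0.58 without MYCi975 replicate 3 to -0.32 without vehicle replicate 4 when 1 library was left out, and it stayed below 0 in all 14 such fits. The difference of the combination from vehicle came to -0.20 without combination replicate 3, and that from TMP195 to -0.30 without TMP195 replicate 2.

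Mff (ENSMUSG00000026150.15), the gene of a DRP1 receptor on the outer membrane, was 7.72, 8.03, 8.34 and 8.02 with MYCi975, 8.20, 8.52 and 8.45 with TMP195, 8.43, 8.21 and 8.39 with the combination, and 8.07, 8.70, 8.08 and 8.50 with vehicle. Of the MYCi975 libraries 3 lay below every other library, and replicate 3 lay among the rest. The difference from vehicle was -0.31 with MYCi975 (-0.66 to 0.04, unadjusted p = 0.076, adjusted p = 0.999 by limma), 0.05 with TMP195 (-0.32 to 0.43) and 0.0045 with the combination (-0.37 to 0.38). The MYCi975 difference came to -0.19 without vehicle replicate 2, the highest vehicle library. The combination differed from MYCi975 by 0.32 (-0.06 to 0.69, adjusted p = 0.628 by limma), with MYCi975 replicate 3 inside the range of the combination. Oma1 and Mff were thus both lowest on average with MYCi975 and highest with TMP195, with spans between the highest and lowest group mean of 0.59 and 0.36.

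Dnm1l (ENSMUSG00000022789.16), which encodes the fission GTPase DRP1, was 8.50, 8.27, 8.81 and 9.06 with MYCi975, 8.74, 8.64 and 8.67 with TMP195, 8.83, 8.80 and 8.94 with the combination, and 8.73, 8.58, 8.99 and 9.09 with vehicle. Both the lowest library and one of the highest were MYCi975 libraries. The difference from vehicle was -0.19 with MYCi975 (-0.53 to 0.15), which came to -0.06 without MYCi975 replicate 2, the lowest library, and to -0.32 without MYCi975 replicate 4. It was -0.16 with TMP195 (-0.53 to 0.20) and 0.0094 with the combination (-0.36 to 0.38). The TMP195 difference ran from -0.25 (vehicle replicate 2 left out) to -0.08 (vehicle replicate 4 left out). All combination libraries lay above all TMP195 libraries, as in 5.48% of all genes tested, with a difference of 0.17 (-0.22 to 0.56, adjusted p = 0.998 by limma). The interaction subtracts the MYCi975 difference from vehicle from the difference of the combination from TMP195. For Dnm1l it was 0.36 (-0.16 to 0.88, adjusted p = 0.911 by limma) and 0.23 without MYCi975 replicate 2. Dnm1l tended to be lower where markers of several other cell types were higher. The mean of 6 centred neutrophil markers was 1.49 in MYCi975 replicate 2, where Dnm1l was 8.27, and from -0.65 to 0.50 in the other libraries. As a description over the 14 libraries, Pearson's r between Dnm1l and this mean was -0.77 and Spearman's rho -0.70, and r was -0.44 when MYCi975 replicates 1 and 2, whose marker means lay farthest from the median, were left out. By group, the marker mean ran from -0.36 to 1.49 with MYCi975, from -0.20 to 0.43 with TMP195, from -0.65 to -0.36 with the combination and from -0.56 to 0.0097 with vehicle, and all 6 markers were tested genes. Some other marker lists went the same way and some did not. Dnm1l had r = -0.62 with Ptprc, the gene of the leukocyte antigen CD45, and -0.54 with the mean of 5 endothelial markers. It had r = -0.53 with the 5 leukocyte markers and -0.53 with 5 T cell markers. With macrophage and skeletal muscle markers r was -0.40 and -0.33. With fibroblast, erythroid and LLC1 carcinoma markers it was 0.0071, 0.10 and 0.12. MYCi975 replicate 2 was also the highest library in Ptprc (12.07) and in the leukocyte mean (1.18), and these r include it. Dnm1l had r = 0.73 with the mean of 19 other genes of fusion and inner membrane shape. The part of RNA from any of these cell types in the Dnm1l values was not tested.

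Fis1 (ENSMUSG00000019054.14), the gene of an outer membrane protein first known as a fission factor in yeast, was 7.35, 7.32, 7.19 and 7.55 with MYCi975, 7.19, 7.37 and 7.55 with TMP195, 7.38, 7.40 and 7.03 with the combination, and 6.99, 7.43, 7.24 and 7.53 with vehicle. The vehicle range held all treated values but 7.55 in MYCi975 replicate 4 and 7.55 in TMP195 replicate 3. The differences from vehicle were 0.06 with MYCi975 (-0.26 to 0.38), 0.07 with TMP195 (-0.27 to 0.42) and -0.03 with the combination (-0.37 to 0.31).

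Bnip3l (ENSMUSG00000022051.16), the mitophagy receptor gene, was 10.25, 10.41, 10.16 and 10.43 with MYCi975, 10.34, 10.45 and 10.42 with TMP195, 9.84, 10.16 and 10.30 with the combination, and 10.39, 10.22, 10.23 and 10.54 with vehicle. The lowest libraries were combination replicates 1 and 2, with MYCi975 replicate 3 next, and combination replicate 3 lay within the vehicle range. The log2 difference for the combination was -0.24 against vehicle (-0.52 to 0.04, unadjusted p = 0.082, adjusted p = 0.992 by limma), -0.21 against MYCi975 (-0.49 to 0.07) and -0.30 against TMP195 (-0.60 to -0.0055, unadjusted p = 0.046, adjusted p = 0.998 by limma). These comparisons share the combination libraries. Without combination replicate 1 they were -0.12, -0.08 and -0.18. All combination libraries lay below all TMP195 libraries, as in 6.36% of all genes tested. MYCi975 and TMP195 differed from vehicle by -0.03 (-0.29 to 0.23) and 0.06 (-0.22 to 0.34), and the TMP195 difference came to 0.02 without vehicle replicate 2 and 0.12 without vehicle replicate 4.

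Bnip3, the close relative of Bnip3l and not one of the 10 genes, was 9.30, 9.62, 8.91 and 9.39 with MYCi975, 9.50, 9.33 and 9.35 with TMP195, 8.83, 9.17 and 9.07 with the combination, and 8.99, 9.07, 8.94 and 9.16 with vehicle. All TMP195 libraries lay above all vehicle and all combination libraries, with 3 of the 4 MYCi975 libraries also above vehicle. Over all genes tested, 2.4% lay wholly higher with TMP195 than with vehicle, and 6.36% wholly lower with the combination than with TMP195. Bnip3 was singled out after its values were seen. Its differences from vehicle were 0.26 with MYCi975 (-0.03 to 0.56), 0.35 with TMP195 (0.03 to 0.67, unadjusted p = 0.034) and -0.02 with the combination (-0.34 to 0.30), and its interaction was -0.63 (-1.08 to -0.18, unadjusted p = 0.0095, adjusted p = 0.911). None passed limma's test over all genes. The MYCi975 difference came to 0.16 without MYCi975 replicate 2 and to 0.39 without MYCi975 replicate 3. Bnip3l minus Bnip3, taken within a library, was 1.01 ± 0.19 with MYCi975 (0.79 to 1.26), 1.01 ± 0.15 with TMP195 (0.84 to 1.12), 1.08 ± 0.13 with the combination (0.99 to 1.22) and 1.30 ± 0.11 with vehicle (1.16 to 1.39). The TMP195 values lay below all vehicle values, with the nearest at 1.12 and 1.16, while MYCi975 and the combination overlapped vehicle. Bnip3 alone already lay wholly higher with TMP195 than with vehicle. How often other pairs of genes separate in this way is not given here, so nothing follows from this separation. As a description over the 14 libraries, Bnip3l and Bnip3 had Pearson's r = 0.62 and Spearman's rho = 0.61, with r = 0.47 without MYCi975 replicate 2 and combination replicate 1.

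The libraries lowest in Bnip3l were combination replicates 1 and 2 and MYCi975 replicate 3. Genes of the hypoxia response and leukocyte markers both had means below 0 in them. This did not hold throughout. Vehicle replicate 2 (Bnip3l 10.22) had a hypoxia mean of 0.01, and vehicle replicate 3 (10.23) a leukocyte mean of 0.25. Vehicle replicate 4, the highest in Bnip3l (10.54), had a hypoxia mean of -0.02. The mean of 15 centred hypoxia response genes was 0.0053, 0.20, -0.21 and 0.08 in MYCi975 replicates 1 to 4. In TMP195 replicates 1 to 3 it was 0.34, 0.25 and -0.02. It was -0.35, -0.06 and 0.08 in combination replicates 1 to 3, and -0.12, 0.01, -0.19 and -0.02 in vehicle replicates 1 to 4. As a description, Bnip3l followed it with r = 0.66 and rho = 0.58 over the 14 libraries (r = 0.54 without combination replicate 1 and TMP195 replicate 1). With the mean of the leukocyte markers r was 0.60 and rho 0.56 (r = 0.67 without MYCi975 replicate 2 and TMP195 replicate 3). Ptprc averaged 10.04 ± 0.36 with the combination and 10.60 ± 0.30 with vehicle. Their part in the Bnip3l values was not tested.

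**Figure D2:**
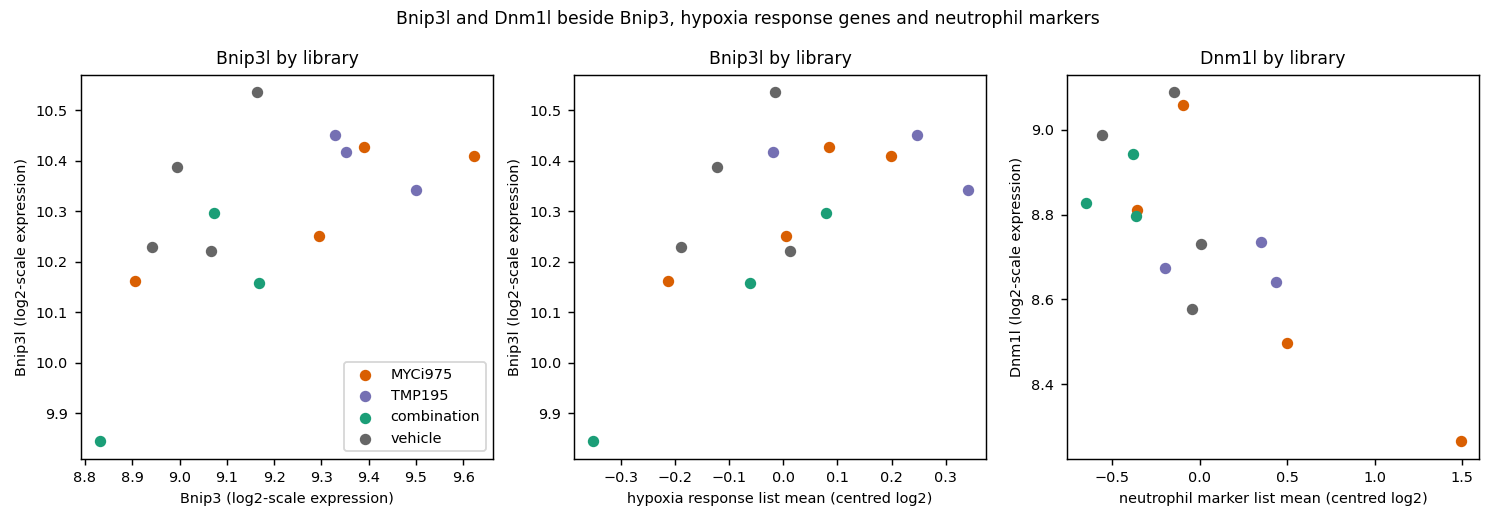
Bnip3l against Bnip3 (left), Bnip3l against the mean of 15 hypoxia response genes (middle) and Dnm1l against the mean of 6 neutrophil markers (right), with 1 point for each of the 14 libraries and colours for the groups. Vertical axes are log2-scale expression, and list means are of values centred on each gene's mean. Combination replicate 1 lies lowest in Bnip3l (9.84), and MYCi975 replicate 2 lies lowest in Dnm1l (8.27) and highest in neutrophil markers (1.49).

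Of the other genes and marker lists, Mfn2 and the mean of 5 T cell markers had r = -0.68 and rho = -0.71 (r = -0.74 without TMP195 replicate 3 and MYCi975 replicate 2). Other lists went the same way for Mfn2, with r = -0.54 for macrophage, -0.46 for endothelial, -0.39 for leukocyte, -0.37 for neutrophil and -0.33 for skeletal muscle markers. For LLC1 carcinoma, erythroid and fibroblast markers its r was 0.56, 0.08 and 0.01. Mfn1 and the mean of the 2 skeletal muscle markers tested, of 8 listed, had r = -0.59 and rho = -0.62 (r = -0.57 without vehicle replicate 3 and MYCi975 replicate 2). Of these 2 markers, Myh4 was at the lowest value, 4.047, in vehicle replicate 4 and combination replicate 3. Mfn1 was high in both, at 8.08 and 8.25, so this r rests in part on values at the lowest level. This muscle mean varied widely, from -0.53 to 1.54 with MYCi975, from -0.99 to -0.52 with TMP195, from -1.52 to 0.29 with the combination and from -1.49 to 2.36 with vehicle. With the other lists, Mfn1 had r = -0.41 for endothelial, -0.40 for macrophage, -0.37 for T cell and -0.29 for fibroblast markers. For leukocyte, neutrophil, erythroid and LLC1 carcinoma markers its r was -0.25, -0.20, -0.09 and 0.22. The part of RNA from these cell types was not tested. The pairs of Mfn2 with T cell markers and of Mfn1 with muscle markers were chosen for description after all the values were seen.

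Pink1 (ENSMUSG00000028756.13), the gene of the kinase that marks depolarised mitochondria, was 7.16, 6.87, 6.72 and 6.78 with MYCi975, 6.80, 7.32 and 6.90 with TMP195, 6.86, 6.83 and 7.01 with the combination, and 6.80, 6.67, 7.17 and 6.84 with vehicle. TMP195 replicate 2 was the highest library and the groups overlapped throughout. The differences from vehicle were 0.01 with MYCi975 (-0.32 to 0.34), 0.13 with TMP195 (-0.22 to 0.49) and 0.03 with the combination (-0.33 to 0.38).

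Fundc1 (ENSMUSG00000025040.14), the gene of a mitophagy receptor of the outer membrane, was 7.64, 7.18, 7.58 and 7.74 with MYCi975, 7.71, 7.78 and 7.64 with TMP195, 7.34, 7.79 and 7.43 with the combination, and 7.44, 7.58, 7.82 and 7.86 with vehicle. MYCi975 replicate 2 and combination replicate 1 were lowest. The differences from vehicle were -0.14 with MYCi975 (-0.46 to 0.18), 0.03 with TMP195 (-0.31 to 0.38) and -0.15 with the combination (-0.50 to 0.19). The MYCi975 difference ran from -0.22 without vehicle replicate 1 to -0.02 without MYCi975 replicate 2, and that of the combination from -0.29 without combination replicate 2 to -0.06 without combination replicate 1.

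**Figure D3:**
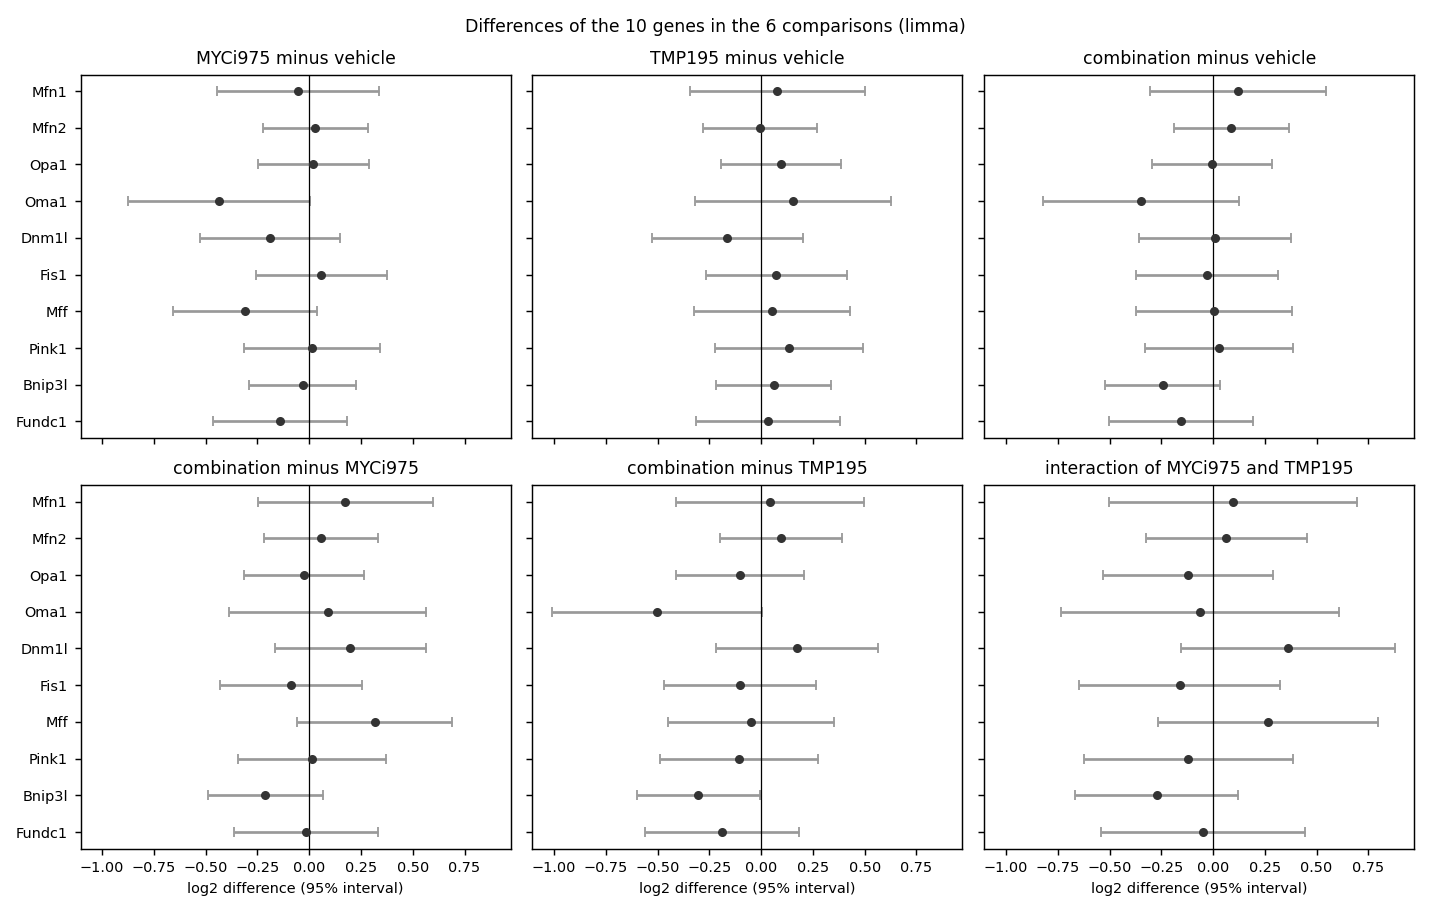
Log2 differences of the 10 genes in the 6 comparisons, with 95% intervals from limma (horizontal axes) and 1 row for each gene. The interval of Bnip3l for the combination minus TMP195 (-0.60 to -0.0055) is the only one of the 60 that excludes 0, and no adjusted p passed the threshold.

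Counted together, 4 of the 10 genes were higher and 6 lower with MYCi975 than with vehicle, with a median difference of -0.04 against 0.0073 over all genes tested. With TMP195 8 were higher and 2 lower (median 0.07, against 0.0036 over all genes), and with the combination 5 were higher and 5 lower (median -0.0009, against -0.0022). These are signs of differences that did not pass the test. At an unadjusted p under 0.05 there were 0 of the 10 genes in each comparison with vehicle, against 3.33% of all genes for MYCi975, 2.78% for TMP195 and 3.43% for the combination. It was 0 of 10 for the combination against MYCi975 (8.17% of all genes) and 0 of 10 for the interaction (4.78%). It was 1 of 10, Bnip3l, for the combination against TMP195 (4.4% of all genes).

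Each treatment overlapped vehicle in all 10 genes, and so did the combination and MYCi975. Over all genes, MYCi975 lay wholly above vehicle in 1.03% and wholly below in 0.707%, TMP195 in 2.4% and 1.87%, and the combination in 2.8% and 3.27%. The shares were 3.53% and 3.97% for the combination against MYCi975. For the combination against TMP195, 1 of the 10 genes lay wholly higher (Dnm1l, against 5.48% of all genes) and 2 wholly lower (Oma1 and Bnip3l, against 6.36%).

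Correlations among the 10 genes had both signs. Over the 14 libraries, 30 of their 45 pairs had a positive Pearson's r and 15 a negative one, with a median of 0.08, given as a description: every pair uses the same 14 libraries, whose depth is unknown and whose cell makeup varied. The highest was Oma1 with Mff (r = 0.61, rho = 0.60, and r = 0.59 without MYCi975 replicate 1 and vehicle replicate 2). The lowest was Mfn1 with Fis1 (r = -0.55, rho = -0.51, and r = -0.40 without vehicle replicate 1 and combination replicate 3). The gene most like each of the 10, by Pearson's r over the 14 libraries among all genes tested, was Dpp9 for Mfn1 (0.87), Clybl for Mfn2 (0.87), Brd3 for Opa1 (0.81), Eif2a for Oma1 (0.86), 1600012H06Rik for Dnm1l (0.88), Llph-ps2 for Fis1 (0.92), Mrps24 for Mff (0.86), Ago1 for Pink1 (0.79), Esd for Bnip3l (0.86) and Ttc12 for Fundc1 (0.86). Each is the best of a search over all genes tested in only 14 libraries, so that nothing follows from its size or from its lying outside the 10.

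**Figure D4:**
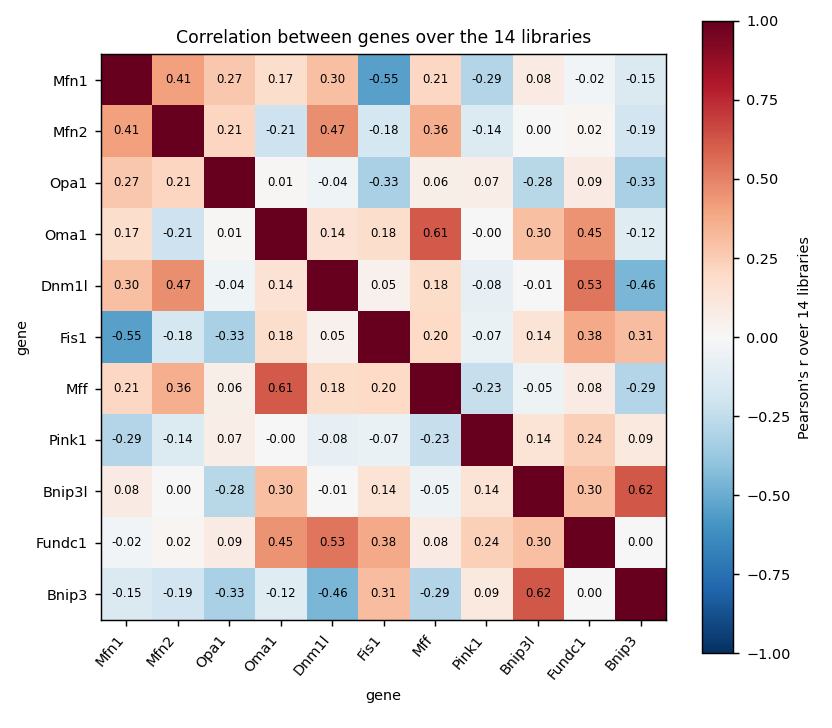
Pearson's r over the 14 libraries for each pair of the 10 genes and Bnip3 (rows and columns), with the colour scale running from -1 to 1. Within the 10 genes r runs from -0.55 (Mfn1 with Fis1) to 0.61 (Oma1 with Mff), with a median of 0.08.

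Spread within groups differed between the genes. The pooled SD was lowest for Mfn2 (0.14), Bnip3l (0.15) and Opa1 (0.16) and highest for Oma1 (0.31), followed by Mfn1 (0.28). Of the genes within 0.5 log2 units of the same mean, 21.9% varied less than Bnip3l, 27.7% less than Opa1, 65.2% less than Oma1 and 67.7% less than Mfn1.

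Other genes of these pathways were followed in 6 lists that hold 114 genes in the table, of which 111 were tested. None passed limma's test in any of the 6 comparisons. At an unadjusted p under 0.05 there were 3 of the 111 for MYCi975 against vehicle (3.33% of all genes), 8 for TMP195 (2.78%) and 4 for the combination (3.43%). Of these genes 56 were higher and 55 lower with MYCi975, 52 and 59 with TMP195, and 57 and 54 with the combination. Over all 13711 genes tested, 7088, 6967 and 6808 were higher in these comparisons.

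By list, with MYCi975 the other fission genes had a median difference from vehicle of -0.03 (8 of 20 higher), with Mul1, a ubiquitin ligase of the outer membrane, at 0.46 and Mtfr2, a fission regulator, at -0.40. Other genes of fusion and inner membrane shape had a median of -0.05 (8 of 19 higher), with Slc25a46 at 0.15 and Apool, a subunit of the MICOS complex, at -0.25. Other mitophagy genes had a median of 0.01 (17 of 33 higher), with the autophagy receptor gene Tax1bp1 at 0.23 and Ulk1, the kinase gene that starts autophagy, at -0.25. The LC3 and GABARAP conjugation genes had a median of 0.10 (7 of 11 higher), with Atg7 at 0.28 and Gabarapl2 at -0.11. Genes of mitochondrial transport and contacts had a median of -0.001 (6 of 13 higher), with Vapb at 0.27 and the motor adaptor gene Trak2 at -0.32. The hypoxia response genes had a median of 0.14 (10 of 15 higher), with Pfkfb3 at 0.47 and Ldha at -0.23. Many of the values of these named genes depended in part on 1 library, though none changed sign when any library was left out. Without MYCi975 replicate 2, Pfkfb3 came to 0.16, Mul1 to 0.28, Mtfr2 to -0.25 and Gabarapl2 to -0.06. Without vehicle replicate 4, Trak2 came to -0.16 and Ulk1 to -0.12, and Ulk1 came to -0.40 without vehicle replicate 3. Ldha came to -0.13 without vehicle replicate 2.

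With TMP195, the hypoxia response genes had a median difference from vehicle of 0.24 (12 of 15 higher, 3 at an unadjusted p under 0.05), against 0.0036 over all genes, with Mxi1 at 0.47 and Kdm3a at -0.06. Other mitophagy genes had a median of -0.02 (14 of 33 higher), with Ambra1, a scaffold of autophagy initiation, at 0.73 and Usp15, a deubiquitinase gene, at -0.15. Other fission genes had a median of -0.01 (8 of 20 higher), with Mul1 at 0.54 and Mtfr1l at -0.22. Other genes of fusion and inner membrane shape had a median of -0.05 (5 of 19 higher), with Afg3l2, a subunit of an inner membrane protease, at 0.22 and Micos13, listed under its older symbol 2410015M20Rik, at -0.53. The LC3 and GABARAP genes had a median of 0.06 (7 of 11 higher), with Atg7 at 0.30 and Atg4b at -0.34, and the transport and contact genes -0.0075 (6 of 13 higher), with Pacs2 at 0.27 and Trak2 at -0.42. With 1 library left out, Atg7 came to 0.17 (TMP195 replicate 2), Atg4b to -0.15 (TMP195 replicate 2), Pacs2 to 0.15 (vehicle replicate 2), Trak2 to -0.26 (vehicle replicate 4) and Mul1 to 0.32 (TMP195 replicate 1).

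With the combination, the hypoxia response genes had a median difference from vehicle of -0.05 (6 of 15 higher), with Car9, a carbonic anhydrase gene, at 0.45 and Ankrd37 at -0.50. Against TMP195 their median was -0.33, with 14 of 15 lower and 3 at an unadjusted p under 0.05, beside a median of 0.0056, 6706 of 13711 lower and 4.4% at that p over all genes. Their median interaction was -0.36, with 14 of 15 below 0, beside 0.0014 and 6825 of 13711 below 0 over all genes. Other genes of fusion and inner membrane shape went the other way, with a median of 0.08 against TMP195 (14 of 19 higher, 0 at an unadjusted p under 0.05) and a median interaction of 0.10 (16 of 19 above 0). These comparisons use the same combination and TMP195 libraries, and no gene of either list passed limma's test. By library the hypoxia response means overlapped, with 0.08 in combination replicate 3 and -0.02 in TMP195 replicate 3. Combination replicate 1 was the lowest, at -0.35. Genes of a list can vary together, and the lists were chosen with earlier results known, so these counts are a description only. Other mitophagy genes had a median of 0.0022 against vehicle (19 of 33 higher), with Ambra1 at 0.62 and Fundc2 at -0.29. Other fission genes had a median of 0.02 (12 of 20 higher), with Mul1 at 0.35, and other genes of fusion and inner membrane shape 0.03 (11 of 19 higher), with Spg7 at 0.18 and Micos13 at -0.56. The LC3 and GABARAP genes had a median of -0.05 (5 of 11 higher), with Atg16l1 at 0.23 and Atg3 at -0.45, and the transport and contact genes -0.06 (4 of 13 higher), with Trak1 at 0.34 and Trak2 at -0.23. Without vehicle replicate 4, Trak1 came to 0.12, Trak2 to -0.07 and Spg7 to 0.12. Without combination replicate 1, Ankrd37 came to -0.23 and Fundc2 to -0.10, and without combination replicate 2 they came to -0.89 and -0.56.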

How the data were processed

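The authors deposited 1 table of 21152 genes by 14 libraries, whose name gives variance-stabilised, normalised counts, a log2-scale unit. Per the labels' protocols, RNA from a tumour-enriched population was made into stranded total RNA libraries. The submitters' processing notes name Salmon and hg38, a human build, while the IDs are mouse, and which build was used could not be settled. How the authors filtered and scaled the libraries is not given in the sources. The depth is unknown.

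Symbols were matched for 20264 of 21152 IDs. Of 117 listed symbols of related genes, 114 were in the table. Genes with a mean more than 1 log2 unit above the lowest value were tested (13711, all 10 genes described among them). Group means over the 14 libraries were compared in limma 3.58.1 (R 4.3.3), with moderation along an intensity trend (10 residual and 5.27 prior degrees of freedom), two-sided, adjusted by Benjamini-Hochberg at 0.05, and tested on simulated data. The 10 genes and the lists were chosen with earlier results of these data known. Beside them, the gene of smallest p on each side of each list was named in each comparison with vehicle. The rule allowed up to 2 on each side, and 1 was kept for length after the values were seen. Bnip3 was singled out after its values were seen. Some of the genes this rule selects are not reported here.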

Additional observations from a re-analysis of the deposited data

Results flagged for a closer look

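The 10 genes and 29 genes named beside them gave 78 groups of 4 libraries, in which chance alone sets a library apart in about 1 in 20. The TMP195 and combination groups, of 3 libraries each, were not examined in this way. In the MYCi975 and vehicle groups, no library stood apart for any of the 10 genes, and 4 did for the genes named beside them. Each is a library whose gap to the nearest of the other 3 takes up more of the range of its group than Dixon's 95% limit for 4 values. Trak2 was 8.79 in MYCi975 replicate 2, above 8.28 to 8.35 in the other MYCi975 libraries, and 9.24 in vehicle replicate 4, above 8.53 to 8.64 in the other vehicle libraries. Mtfr2 was 6.07 in vehicle replicate 2, above 5.87 to 5.89 in the other vehicle libraries. Afg3l2 was 8.81 in MYCi975 replicate 2, above 8.39 to 8.45 in the other MYCi975 libraries.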

How the results depend on the processing

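No alternative gave a gene past the threshold in any comparison, and the smallest adjusted p of any of the 10 genes under any of them was 0.369 by limma. The alternatives were testing every gene, a minimum mean set 2 log2 units over the lowest value, median centring, library weights, no intensity trend, only the libraries compared, the replicate number as a block, and leaving out each of the 14 libraries. Genes named beside the 10 were put through them after the data were seen. Of the 60 differences of the 10 genes, 24 kept their sign under every alternative. The other 36 changed sign without at least 1 library, so their direction is not settled by these libraries. The depth is unknown, and counting error cannot be told apart from other spread. For MYCi975 against vehicle, the difference ran in Mfn1 from -0.20 to 0.031, in Mfn2 from -0.015 to 0.080, in Opa1 from -0.083 to 0.085, in Fis1 from -0.043 to 0.13, in Pink1 from -0.078 to 0.11 and in Bnip3l from -0.072 to 0.033. For TMP195 against vehicle, the difference ran in Mfn1 from -0.088 to 0.20, in Mfn2 from -0.050 to 0.025, in Oma1 from -0.044 to 0.29, in Fis1 from -0.028 to 0.16, in Mff from -0.036 to 0.17, in Pink1 from -0.021 to 0.24, in Fundc1 from -0.044 to 0.096 and in Kdm3a from -0.16 to 0.022. For the combination against vehicle, the difference ran in Mfn1 from -0.032 to 0.23, in Mfn2 from -0.041 to 0.16, in Opa1 from -0.077 to 0.058, in Dnm1l from -0.080 to 0.091, in Fis1 from -0.13 to 0.091, in Mff from -0.084 to 0.12, in Pink1 from -0.040 to 0.13 and in Bnip3 from -0.089 to 0.080. Between combination and MYCi975 it ran in Mfn2 from -0.071 to 0.13, in Opa1 from -0.085 to 0.077, in Oma1 from -0.021 to 0.23, in Fis1 from -0.15 to 0.033, in Pink1 from -0.039 to 0.11 and in Fundc1 from -0.15 to 0.075. Between combination and TMP195 it ran in Mfn1 from -0.11 to 0.21, in Mfn2 from -0.036 to 0.16, in Fis1 from -0.19 to 0.017, in Mff from -0.14 to 0.017 and in Pink1 from -0.21 to 0.049. For the interaction, it ran in Mfn1 from -0.057 to 0.26, in Mfn2 from -0.066 to 0.13, in Oma1 from -0.20 to 0.13, in Pink1 from -0.22 to 0.035 and in Fundc1 from -0.18 to 0.042. Under median centring Opa1 (combination against vehicle) was 0.0036 and Fundc1 (combination against MYCi975) 0.0050. With library weights Mfn2 for TMP195 against vehicle was 0.012, Fis1 for the combination against vehicle 0.035, Pink1 for the combination against MYCi975 -0.039 and Mfn1 for the combination against TMP195 -0.036. With the replicate block these were 0.016 for Mfn2, 0.042 for Fis1 and -0.0079 for Pink1, with 0.051 for Fundc1 (combination against MYCi975) and 0.018 for Bnip3 (combination against vehicle). The cause of these changes was not tested. The labels do not say that a replicate number marks a shared animal or batch. Same-numbered libraries of different groups deviated together with a median r of 0.036 over 19 pairs (-0.30 to 0.21), against -0.0036 over 54 other pairs, so the numbers were not taken to pair the libraries, and the block gave 0 calls, as did the fit without it.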
